A study of Rattus norvegicus with 3 samples.

Results

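The Slc25 genes encode the mitochondrial carriers, the proteins that move metabolites, nucleotides, phosphate, amino acids and cofactors across the inner mitochondrial membrane. Members were taken as every gene whose symbol starts with Slc25a and a number. The rule found 44 genes, each on 1 row, among the 30957 genes of the series. Of these, 37 reached a mean of 1 FPKM (fragments per kilobase of gene, scaled to 1000000 fragments) over the 3 rats, 3 lay below it, and 4 were listed at 0 in every rat. Messenger RNA was measured in motor cortex tissue. It came from 3 male Sprague-Dawley rats, numbered 19, 35 and 70, that had gone through cerebral ischemia (a stop of blood flow) and reperfusion. Each is labelled 8 weeks, a time that the labels do not tie to age or to the operation. They form 1 group, and a control group was not analysed here. How the ischemia was made and which hemisphere was sampled are not given in the sources used here. Sets of 3 values run in the order of rats 19, 35 and 70.

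Carriers share a fold of repeated membrane-spanning modules and work mostly as exchangers: 1 substrate enters the matrix as another leaves. The ADP/ATP carriers bring ADP in and ATP out, the phosphate carrier supplies the phosphate for ATP synthesis, and the aspartate/glutamate carriers are a step of the malate-aspartate shuttle, which brings reducing equivalents of cytosolic NADH to the respiratory chain. In the brain this exchange serves ATP supply, glutamate metabolism and calcium signalling, and several carriers come as paralogues used to different degrees by different cell types.

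The libraries had an effective depth of 15560000, 16460000 and 16050000 fragments. Among the 37 measured members, the fragments behind a value ran from 12 to 5704, counted with the shortest gene length that gave whole fragments in all rats, so that these are the smallest counts the values allow. Rat 35 stood apart in markers of cell types. All 10 neuron markers were lowest there, with a summed level of 1602, 68.1 and 2240 FPKM, and all 10 markers of microglia and macrophages were highest there (1275, 8246 and 1069). The 5 measured fibroblast markers were highest in rat 35 too (255, 2764 and 250), with Col1a2 listed at 0 in all rats, and 7 of 9 astrocyte markers were lowest in it (2531, 864 and 1446). Of 8 oligodendrocyte markers, 4 were lowest and 1 highest in rat 35 (4337, 3646 and 5718), and of 5 endothelial markers 4 were highest (157, 244 and 114). The 2 measured markers of red blood cells were highest there as well, with a sum of 25.6, 107 and 33.5. In whole tissue, fewer cells of a type and less RNA per cell cannot be told apart, and the part of these cell types in the differences below was not tested.

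The carriers covered a wide range of levels. The median member had a mean of 11.9 FPKM, beside 11.2 over the 14134 genes at a mean of 1 FPKM or more. Means of 100 FPKM or more were found for 3 members, of 10 to 100 for 17 and of 1 to 10 for 17. Slc25a4, Slc25a5 and Slc25a3 are the carriers of ADP, ATP and phosphate. They made up 52.7%, 57.9% and 55.7% of the summed FPKM of all genes with an Slc25a symbol (55.4% ± 2.59, SD, n = 3). That sum was 1300, 1198 and 1418 FPKM (1305 ± 110, SD, n = 3), so it differed less between rats than many single members did. It leaves out family members under other symbols, namely Ucp2 (134, 534 and 60.5 FPKM), Mtch1 (248, 152 and 211) and Mtch2. In rat 35, Ucp2 alone stood above Slc25a4 (261). The sum, its order over rats and the shares therefore hold for the Slc25a symbols only.

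**Figure D1:**
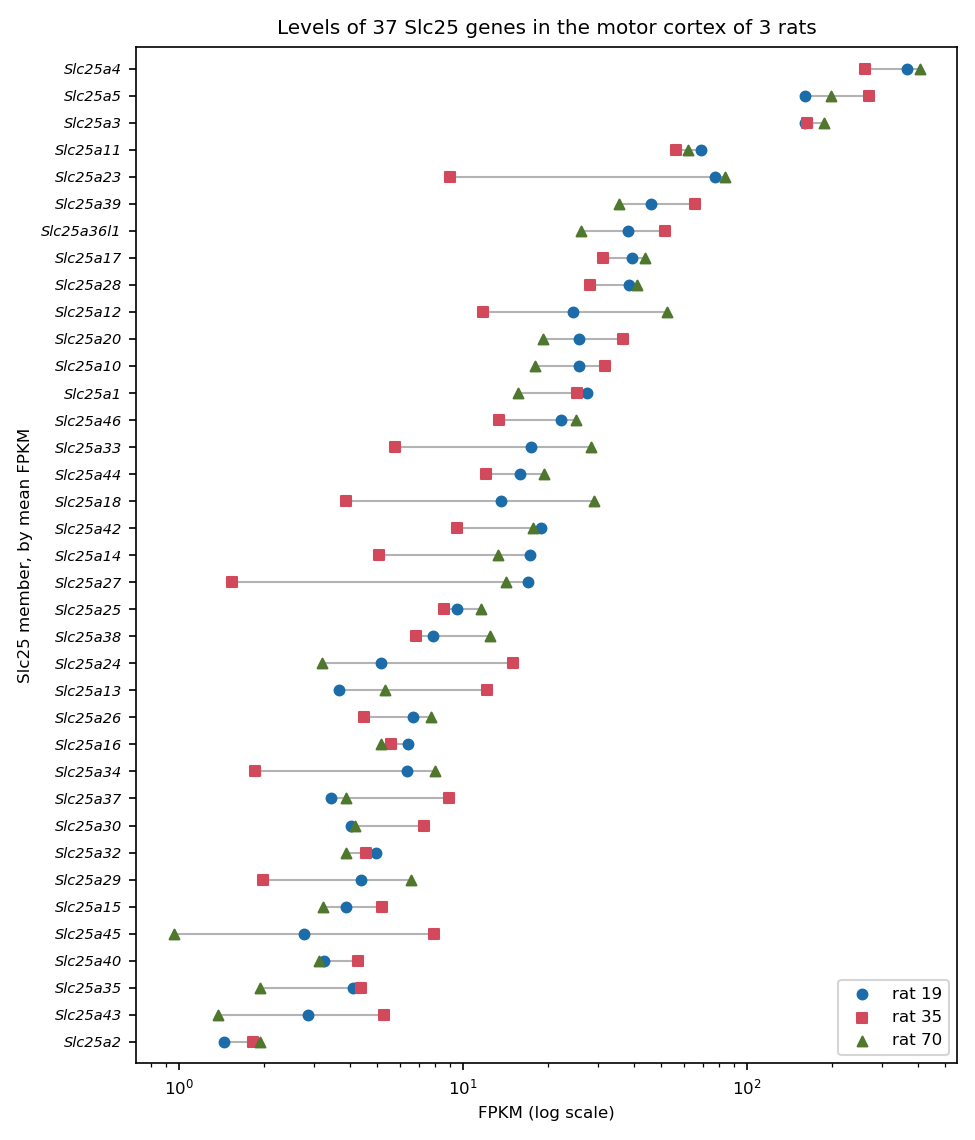
Levels of the 37 measured Slc25 genes, ordered by mean, with FPKM on a log axis and 1 symbol for each rat. Grey lines join the lowest and highest rat, and the 4 longest are those of Slc25a27, Slc25a23 and Slc25a18, with rat 35 at the low end, and Slc25a45, with rat 35 at the high end.

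Single members differed between rats in both directions. On the log2(FPKM + 1) scale the highest and lowest rat were over 2-fold apart for 13 of 37 members and for 42.5% of all genes. All 13 had rat 35 at one end: it was the lowest rat for 8 and the highest for 5. Without rat 35, 2 members and 11.1% of all genes were over 2-fold apart. Over the whole family, 18 members were lowest in rat 35 (36.5% of all genes were), 14 were highest there (45.4% of all genes) and 5 lay between. Rat 35 was more than 2-fold below both other rats for 6 members, against 11.9% of all genes, and more than 2-fold above both for 4, against 10.3%. In rat 70, 16 members were highest (29.8% of all genes) and 13 lowest (44.2%). In rat 19, 7 were highest (24.8%) and 6 lowest (19.3%). Rats 19 and 70 differed by more than 2-fold in 2 members, Slc25a12 and Slc25a18, both higher in rat 70, and in 11.0% of all genes. That count rests on the + 1: in FPKM itself Slc25a45, Slc25a35 and Slc25a43 were 2.88-fold, 2.12-fold and 2.08-fold higher in rat 19, beside 2.13-fold and 2.12-fold higher levels of Slc25a12 and Slc25a18 in rat 70. The median member deviated from its 3-rat mean by 0.06, -0.05 and 0.10 (log2) in rats 19, 35 and 70, and the median gene by 0.02, 0.06 and -0.09.

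Counting error was compared with these differences. The exact 95% Poisson interval of rat 35, which covers counting error only, lay below those of both other rats for 14 of 37 members (24.8% of all genes with a recovered length) and above both for 11 (31.5%). For the other 12 members it overlapped the interval of at least 1 other rat. One library stands for each rat, so animal and library cannot be told apart, and no test between rats was made.

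**Figure D2:**
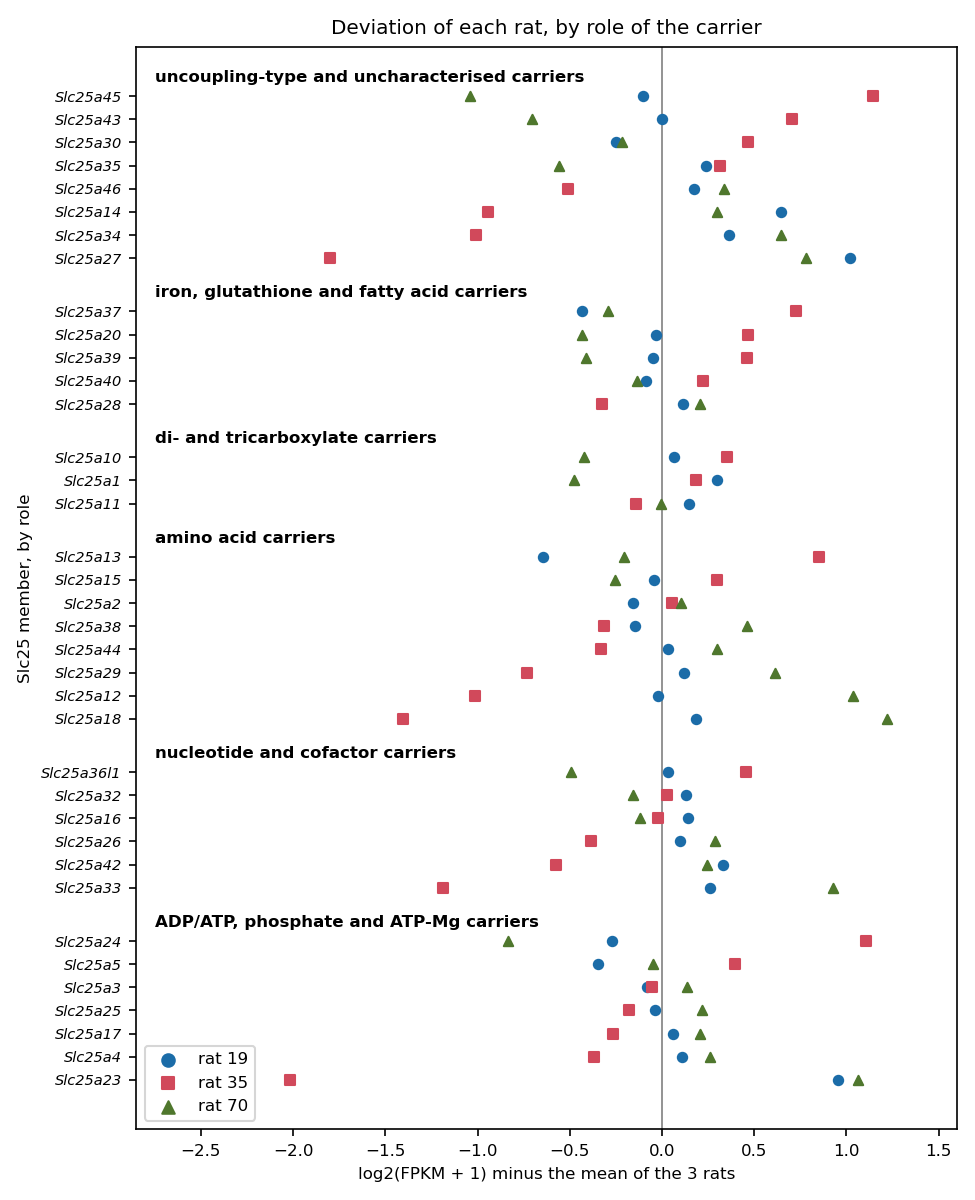
Deviation of each rat from the 3-rat mean in log2(FPKM + 1), for the 37 measured members grouped by role. In every role group rat 35 (squares) lies on both sides of 0, furthest below for Slc25a23 and furthest above for Slc25a45.

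Of the 7 measured carriers of ADP, ATP, phosphate and ATP-Mg, 4 were lowest and 2 highest in rat 35, beside 36.5% and 45.4% of all genes. The ADP/ATP carriers Slc25a4 and Slc25a5 differed in opposite directions. Slc25a4 (ENSRNOG00000010830, chromosome 16, 49266903 to 49270698, Rnor 6.0) encodes the ADP/ATP carrier typical of heart, muscle and brain, and Slc25a5 (ENSRNOG00000039980, chromosome X, 123404570 to 123407637) the form found in many tissues. Slc25a4 was at 365, 261 and 406 FPKM (344 ± 74.4, SD, n = 3), lowest in rat 35. Slc25a5 was at 160, 269 and 198 (209 ± 55.2), highest in rat 35. Their sum was 525, 530 and 603, while the share of Slc25a4 in it was 69.5%, 49.3% and 67.2%. FPKM is per length, so levels of these genes can be set side by side: Slc25a4 stood 2.28-fold over Slc25a5 in rat 19 and 2.05-fold in rat 70, and the genes were at a ratio of 0.97 in rat 35. The log2 ratio of FPKM + 1 was 0.72 ± 0.67 (SD, n = 3), positive in 2 of 3 rats, with p = 0.5 in a two-sided exact permutation test by sign flips (adjusted over 7 pairs 0.5). With 3 rats that test cannot go below 0.25. Without rat 35 the mean log2 ratio was 1.11, and without rat 70 it was 0.57.

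The promoters of this pair, the 250 bases before the RefSeq start in the GRCr8 build, differed in the short motifs found in them. Their GC content was close, at 65.6% for Slc25a4 and 66.8% for Slc25a5, with 19 and 20 CG steps. The files use Rnor 6.0, so these coordinates do not carry over to the gene positions given here. Capitals mark matches, on either strand, to any of 7 motifs. These were GCATGCGC as the core of the NRF1 site, TGACGTCA as the cAMP response element, GGGCGG as the GC box, CCAAT as the box of that name, CCGGAAG as the ETS site, TATAAA as the TATA box and TCAAGGTCA as the ERR half-site. No motif contains another. The Slc25a4 promoter (chr16:52805271-52805520, plus strand) holds 2 CCAAT boxes, which start 143 and 87 bases before the gene, and 1 ETS site. That of Slc25a5 (chrX:120897366-120897615, plus strand) holds 3 GC boxes, all on the opposite strand, and no CCAAT box.
Slc25a4: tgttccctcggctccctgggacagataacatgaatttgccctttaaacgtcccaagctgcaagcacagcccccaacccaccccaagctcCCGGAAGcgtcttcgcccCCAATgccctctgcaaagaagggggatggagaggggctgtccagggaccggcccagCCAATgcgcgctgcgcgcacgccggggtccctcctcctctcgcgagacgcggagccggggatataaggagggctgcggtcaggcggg
Slc25a5: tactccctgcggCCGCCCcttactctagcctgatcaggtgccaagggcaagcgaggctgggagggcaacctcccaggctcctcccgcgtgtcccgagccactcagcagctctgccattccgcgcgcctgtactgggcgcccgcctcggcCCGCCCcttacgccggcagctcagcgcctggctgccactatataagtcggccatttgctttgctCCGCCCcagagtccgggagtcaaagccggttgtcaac

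Slc25a3, the phosphate carrier, was among the least variable members, at 160, 163 and 186 FPKM (170 ± 14.2, SD, n = 3). Its SD of log2(FPKM + 1) was 0.12, beside a median of 0.44 over the 37 members and 0.45 over all genes. Slc25a17, a carrier of the peroxisome, was at 39.3, 31.2 and 43.6 (38.0 ± 6.29, SD, n = 3), lowest in rat 35. Slc25a31, an ADP/ATP carrier typical of testis, was listed at 0 in all rats. An exact 0 in these files can be a failed estimate, so it is not read as absence.

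The calcium-regulated ATP-Mg/phosphate carriers, which adjust the adenine nucleotide pool of the matrix, held Slc25a23, which had the largest SD of log2(FPKM + 1) among the measured members (1.75). Slc25a23 (ENSRNOG00000047781, chromosome 9, 9988055 to 10001962) was at 77.2, 8.99 and 83.6 FPKM (56.6 ± 41.3, SD, n = 3), 8.94-fold lower in rat 35 than the mean of the other rats. These levels rest on at least 2687, 331 and 2999 fragments. Slc25a24 (ENSRNOG00000020470, chromosome 2, 211930326 to 211967505) went the other way at 5.17, 15.0 and 3.18 (7.79 ± 6.35, SD, n = 3), 3.60-fold higher in rat 35 than the mean of the others. Slc25a25, a close relative, was nearly level at 9.57, 8.58 and 11.6 (9.93 ± 1.55). Slc25a23 thus held 84.0% and 84.9% of the summed level of these 3 genes in rats 19 and 70, and 27.6% in rat 35, where Slc25a24 held 46.1%. The sum itself was 92.0, 32.6 and 98.4 FPKM. The log2 ratio of Slc25a23 over Slc25a25 was 2.89, 0.06 and 2.74 (1.90 ± 1.59, SD, n = 3), positive in all rats, at the smallest p the exact sign-flip permutation test allows (0.25, adjusted 0.4375). Slc25a41, another ATP-Mg/phosphate carrier gene, was listed at 0.

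The promoters of Slc25a23 and Slc25a24 are shown because these paralogues differed in opposite directions. They were not among the 7 pairs, and were set side by side from their values. In the planned pair, Slc25a25 was lowest in rat 35 like Slc25a23, though its rat 35 interval overlapped that of another rat. That of Slc25a23 (chr9:1985366-1985615, minus strand) has a GC content of 53.2% and 1 CCAAT box, 209 bases before the start. That of Slc25a24 (chr2:199449175-199449424, plus strand) has a GC content of 68.4% and 2 GC boxes.
Slc25a23: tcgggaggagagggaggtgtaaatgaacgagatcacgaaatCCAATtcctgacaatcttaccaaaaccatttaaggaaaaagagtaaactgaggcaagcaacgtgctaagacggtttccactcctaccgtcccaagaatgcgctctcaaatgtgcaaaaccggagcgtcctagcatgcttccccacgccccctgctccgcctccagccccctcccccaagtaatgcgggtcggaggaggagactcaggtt
Slc25a24: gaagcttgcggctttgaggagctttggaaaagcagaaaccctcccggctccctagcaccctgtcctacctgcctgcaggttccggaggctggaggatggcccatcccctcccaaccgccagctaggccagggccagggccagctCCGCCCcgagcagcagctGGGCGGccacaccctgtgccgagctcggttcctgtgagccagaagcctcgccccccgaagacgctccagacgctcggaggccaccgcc

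Among the amino acid carriers, 5 of 8 measured members were lowest in rat 35 and 2 highest, beside 36.5% and 45.4% of all genes. Their median deviation was -0.03, -0.32 and 0.38 (log2). The aspartate/glutamate carriers repeated the opposite pattern of paralogues. Slc25a12 (ENSRNOG00000022922, chromosome 3, 57882370 to 57957346), also known as aralar and the main form in neurons, was at 24.5, 11.8 and 52.2 FPKM (29.5 ± 20.6, SD, n = 3). Slc25a13 (ENSRNOG00000009957, chromosome 4, 31608269 to 31730386), known as citrin and best studied in liver, was at 3.67, 12.2 and 5.32 (7.06 ± 4.51). Rat 35 was the lowest for the first and the highest for the second, and rat 70 stood above rat 19 for both. Slc25a12 stood 6.68-fold and 9.81-fold over Slc25a13 in rats 19 and 70, and at a ratio of 0.97 in rat 35. Its share of their sum was 87.0%, 49.3% and 90.7%. The log2 ratio was 1.83 ± 1.65 (SD, n = 3), positive in 2 of 3 rats (exact sign-flip permutation p = 0.5, adjusted 0.5). Its mean was 2.76 without rat 35 and 1.20 without rat 70.

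The promoters of the aspartate/glutamate carriers are shown for the same reason. The 250 bases before Slc25a12 (chr3:76599537-76599786, minus strand) have a GC content of 74.0% with 36 CG steps and match none of the 7 motifs. Those before Slc25a13 (chr4:35328361-35328610, minus strand) have 66.0% with 13 CG steps, 1 CCAAT box, 77 bases before the start, and 1 NRF1 core.
Slc25a12: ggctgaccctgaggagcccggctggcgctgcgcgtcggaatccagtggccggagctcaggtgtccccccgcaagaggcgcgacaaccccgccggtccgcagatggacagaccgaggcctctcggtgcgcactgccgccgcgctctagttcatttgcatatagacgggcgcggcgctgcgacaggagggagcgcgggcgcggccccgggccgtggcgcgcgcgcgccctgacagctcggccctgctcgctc
Slc25a13: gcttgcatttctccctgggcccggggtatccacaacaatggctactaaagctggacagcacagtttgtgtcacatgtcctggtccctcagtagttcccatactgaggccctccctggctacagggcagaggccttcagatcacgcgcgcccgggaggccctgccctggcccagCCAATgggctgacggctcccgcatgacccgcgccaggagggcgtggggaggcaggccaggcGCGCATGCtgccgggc

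Slc25a18, a glutamate carrier known from astrocytes, was at 13.7, 3.87 and 29.0 FPKM (15.5 ± 12.7, SD, n = 3). Rat 35 was lowest and rat 70 highest, a 7.50-fold range, and the astrocyte markers were lowest in rat 35 for 7 of 9 genes but highest in rat 19 by their sum. Slc25a22, the other glutamate carrier, was listed at 0 in every rat, so that the ratio of this pair could not be formed. Slc25a29, a carrier of basic amino acids, was at 4.38, 1.98 and 6.57. Slc25a44, a carrier of branched-chain amino acids, was at 15.9, 12.1 and 19.3, and Slc25a38, the glycine carrier that feeds heme synthesis, at 7.84, 6.84 and 12.4. Rat 35 was the lowest and rat 70 the highest for all 3, and for Slc25a38 the interval of rat 35 overlapped that of another rat. The ornithine carrier Slc25a15 was at 3.88, 5.18 and 3.22, highest in rat 35. Its relative Slc25a2, a short gene with a span of 1197 bases, was at 1.45, 1.83 and 1.93 on 27, 36 and 37 fragments, within counting error of each other.

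Nucleotide and cofactor carriers had 3 of 6 members lowest in rat 35 and 1 highest, beside 36.5% and 45.4% of all genes. Their median deviation was 0.14, -0.20 and 0.06. Slc25a33, a pyrimidine nucleotide carrier, was at 17.4, 5.75 and 28.3 FPKM (17.2 ± 11.3, SD, n = 3), lowest in rat 35. Slc25a36l1, described in the files as a like gene of the pyrimidine carrier Slc25a36, was at 38.1, 51.3 and 26.2 (38.5 ± 12.6), highest in rat 35. Their log2 ratio was -1.09, -2.95 and 0.11 (-1.31 ± 1.54, SD, n = 3; exact sign-flip permutation p = 0.5, adjusted 0.5), with a mean of -0.49 without rat 35 and -2.02 without rat 70. Slc25a42, a carrier of coenzyme A, was at 18.8, 9.57 and 17.7, and Slc25a26, which imports S-adenosylmethionine for methylation, at 6.66, 4.49 and 7.75. The folate and FAD carrier Slc25a32 (4.96, 4.55 and 3.89) and Slc25a16, whose substrate is less settled (6.39, 5.59 and 5.16) were nearly level, with rat 35 between the others.

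Of the 5 carriers of iron, glutathione and acylcarnitine, 4 were highest in rat 35, as were 45.4% of all genes, and the median deviation was -0.05, 0.46 and -0.29. Slc25a39, which brings glutathione into the matrix, was at 46.0, 65.9 and 35.5 FPKM (49.2 ± 15.4, SD, n = 3). Its relative Slc25a40 was at 3.25, 4.27 and 3.12 (3.55 ± 0.634), and its rat 35 interval overlapped that of another rat. The ratio of this pair was the steadiest of the 7, at 14.2, 15.4 and 11.4, with a log2 ratio of 3.43 ± 0.26 (SD, n = 3), positive in all rats at the smallest possible p of the exact sign-flip permutation test (0.25, adjusted 0.4375). Slc25a20, which carries acylcarnitines for fatty acid oxidation, was at 25.7, 36.7 and 19.2 (27.2 ± 8.85), highest in rat 35 and lowest in rat 70. Of the mitoferrins, which import iron, Slc25a28 was at 38.4, 28.1 and 41.0 (35.9 ± 6.84) and Slc25a37, the form of red cell precursors, at 3.43, 8.91 and 3.88 (5.40 ± 3.04). Again 1 paralogue was lowest and the other highest in rat 35. Slc25a28 stood 11.2-fold, 3.15-fold and 10.6-fold over Slc25a37 (log2 ratio 2.61 ± 0.91, SD, n = 3, positive in all rats, exact sign-flip permutation p = 0.25, adjusted 0.4375). The recovered length of Slc25a37 was short (225 bases), so its counts of 12, 33 and 14 fragments are a lower limit, and at these counts the interval of rat 35 overlapped that of another rat.

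**Figure D3:**
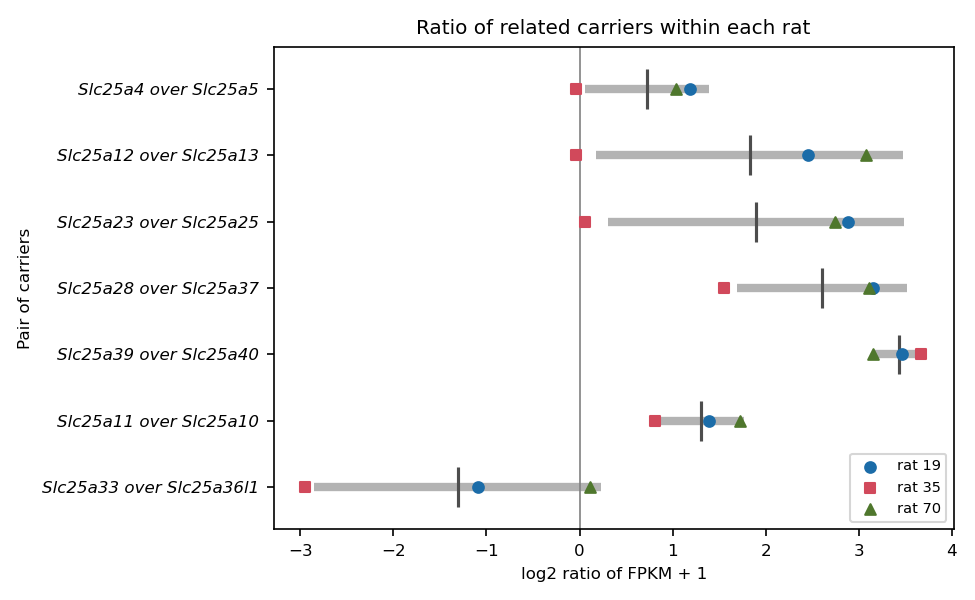
Log2 ratio of FPKM + 1 within each rat for 7 pairs of related carriers, with the mean (dark bar) and 1 SD to each side (grey). Rat 35 has the lowest ratio in 6 of them, and the highest for Slc25a39 over Slc25a40.

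Of the 3 measured di- and tricarboxylate carriers, 1 was lowest and 1 highest in rat 35, beside 36.5% and 45.4% of all genes. Of them, 0 were over 2-fold apart between rats, beside 42.5% of all genes. Slc25a11, the oxoglutarate/malate carrier and the other membrane step of the malate-aspartate shuttle, was at 68.7, 56.2 and 61.8 FPKM (62.3 ± 6.27, SD, n = 3). Slc25a10, the dicarboxylate carrier, was at 25.7, 31.5 and 18.0 (25.1 ± 6.79), highest in rat 35. The log2 ratio of Slc25a11 over Slc25a10 was 1.31 ± 0.46 (SD, n = 3), positive in all rats (exact sign-flip permutation p = 0.25, adjusted 0.4375). Slc25a1, which exports citrate for lipid synthesis, was at 27.4, 25.2 and 15.6, lowest in rat 70. Slc25a21, a carrier of oxodicarboxylates, stayed below the minimum at 0.152, 0.0287 and 0.0882, on as few as 5, 1 and 3 fragments.

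The uncoupling-type carriers Slc25a27 (UCP4) and Slc25a14 (UCP5), both known from brain, were lowest in rat 35. Slc25a27 (ENSRNOG00000010592, chromosome 9, 19880473 to 19907458) was at 16.9, 1.54 and 14.2 FPKM (10.9 ± 8.21, SD, n = 3), 10.1-fold lower in rat 35 than the mean of the others, on at least 1028, 99 and 892 fragments. Slc25a14 was at 17.2, 5.06 and 13.3 (11.9 ± 6.20). The related Slc25a30 went the other way at 4.05, 7.30 and 4.17. Ucp2, a family member under another symbol and known from phagocytes, was at 134, 534 and 60.5. It was highest in rat 35, as were 45.4% of all genes, and the part of cell types in this was not tested. Ucp1, the uncoupling protein of brown fat, was listed at 0, and Ucp3 was at 0, 0.0706 and 0.0362.

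Members of less settled function differed both ways. Together with the uncoupling type, 4 of 8 were lowest and 4 highest in rat 35, beside 36.5% and 45.4% of all genes. Slc25a45 (ENSRNOG00000030616, chromosome 1, 221236773 to 221244563) was at 2.76, 7.91 and 0.96 FPKM (3.88 ± 3.61, SD, n = 3), an 8.24-fold range with rat 35 highest and rat 70 lowest. Slc25a43 had the same order at 2.86, 5.30 and 1.37, as had Slc25a35 at 4.11, 4.39 and 1.94. For Slc25a35 the intervals of rats 35 and 19 overlapped. Slc25a34 was lowest in rat 35 at 6.38, 1.85 and 7.99 (5.41 ± 3.18). Slc25a46, an outer membrane protein that shapes mitochondria, was at 22.3, 13.5 and 25.0, also lowest there. Slc25a48 was at 0.350, 0 and 0.407 and Slc25a47, known from liver, at 0.0319, 0.0301 and 0.0619. The smallest counts these values allow were 6 fragments or fewer in each rat. Slc25a54 was listed at 0.

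**Figure D4:**
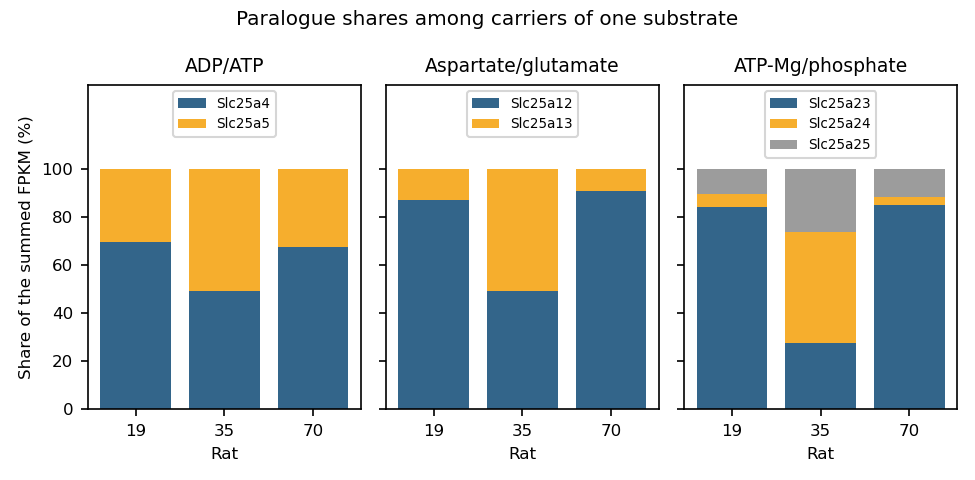
Share of each paralogue in the summed FPKM of carriers of the same substrate, as stacked bars that add to 100% in each rat. Slc25a4, Slc25a12 and Slc25a23 hold the larger share in rats 19 and 70 (67.2% to 90.7%) and 49.3%, 49.3% and 27.6% in rat 35.

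Some members lie side by side on a chromosome, within 50000 bases of each other. Slc25a54 and Slc25a24 are 4644 bases apart on chromosome 2, Slc25a23 and Slc25a41 2842 bases apart on chromosome 9, and Slc25a29 and Slc25a47 14451 bases apart on chromosome 6. In each of these 1 neighbour was measured and the other was below 0.1 FPKM or listed at 0. Slc25a43 and Slc25a5 are 19723 bases apart on chromosome X, and both were highest in rat 35, although rat 70 was lowest for the first and rat 19 for the second. Slc25a40 overlaps the neuronal gene Rundc3b on the other strand (6.18, 0.409 and 5.36), Slc25a46 overlaps Sap130 and Slc25a35 overlaps Rangrf. The strand settings of the counting are not given in the sources used here, so reads of such partners may be mixed.

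Promoter sequences were matched for 38 of 44 members and for 31 of the 37 measured. The GC content of these 31 averaged 61.1%, and that of all 33469 promoters of the same length 52.2%. The 33469 were not limited to measured genes, as the 31 were, so the sets differ in expression as well as in family. Shares over promoters of measured genes alone were not computed. A GC box stood in 19 of the 31 (30.5% of all promoters), a CCAAT box in 18 (34.0%), an ETS site in 5 (7.27%), a cAMP response element in 2 (1.59%) and a TATA box in 1 (12.9%). The NRF1 core stood in 1 (2.20%), Slc25a13, and the ERR half-site in 0 (0.388%). Among matched members, 16 were lowest and 11 highest in rat 35. A CCAAT box stood in 12 and 4 of these, a GC box in 10 and 6, an ETS site in 3 and 1, a cAMP response element in 2 and 0, a TATA box in 1 and 0, and the NRF1 core in 0 and 1. The same split by rat 35 was not made over all genes, so these counts have no background to be read against. They are descriptions of letters in the window, with no test.

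Genes that work with the carriers were taken from a list that also held the family members under other symbols. Of this list, 24 genes were measured. In rat 35, 11 of them were lowest and 7 highest, beside 36.5% and 45.4% of all genes. These counts include the family members Mtch1, lowest in rat 35, and Mtch2 and Ucp2, highest there. The cytosolic enzymes of the malate-aspartate shuttle had the order of Slc25a12, with Mdh1 at 371, 186 and 458 FPKM and Got1 at 101, 28.7 and 183. The mitochondrial enzymes did not, with Mdh2 at 160, 152 and 151 and Got2 at 94.4, 115 and 134. Carnitine palmitoyltransferase genes split by paralogue: Cpt1a was at 12.4, 43.4 and 18.4, and Cpt1c, the brain form, at 32.5, 10.9 and 30.1. Among outer membrane channels, Vdac1 was at 115, 54.9 and 110 and Vdac2 at 89.5, 97.0 and 77.7. Import of carriers into the inner membrane uses Timm22, which was at 14.6, 13.3 and 10.1, and the receptor gene Tomm70a, at 16.4, 9.57 and 22.4. The pyruvate carrier genes differed in order, Mpc1 at 104, 123 and 104 and Mpc2 at 78.8, 39.2 and 56.1.

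Beside other mitochondrial genes, the carriers had the wider spread over rats. The median SD of log2(FPKM + 1) was 0.44 for the carriers, 0.24 for 83 measured nuclear genes of the respiratory chain and ATP synthase and 0.23 for 70 genes of mitochondrial ribosomal proteins. More than 2-fold differences between the highest and lowest rat were found in 13 of 37, 5 of 83 and 4 of 70 genes. Median deviations were 0.11, -0.11 and -0.01 for the respiratory chain and 0.12, 0.00 and -0.10 for the ribosomal proteins. These gaps between lists were not tested, and the carriers were close to all genes in both measures (0.45 and 42.5%). The lists also lay at different levels, with a median mean of 11.9 FPKM for the carriers, 84.1 for the respiratory chain and 19.7 for the ribosomal proteins. The part of level in these gaps was not tested.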

How the data were processed

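The series holds messenger RNA libraries of 3 rats in 1 group. The deposited values are FPKM. Per the labels' design text, the authors took counted and normalized fragments to FPKM by a Perl script. The submitters' processing notes name HISAT2 2.0.4, StringTie 1.3.0 and Rnor 6.0, with no role for either tool, and details of the normalization are not given in the sources used here. Members, role groups, pairs, motifs, partner and marker lists were chosen with earlier results of these data known. Slc25a36l1 and Slc25a54 were placed in role groups, and the pair of Slc25a33 with Slc25a36l1 was set, after the values were seen. Slc25a36 was not analysed here.

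FPKM was analysed as log2(FPKM + 1) over the 14134 genes with a mean of 1 or more. This scale understates differences of low genes. A deviation is the value of a rat minus the gene's mean over 3 rats. Named members were all that the rule found, with mean and SD for the 10 most abundant, the 10 most variable and the pairs. Ratios within rats were given a two-sided exact permutation test by sign flips, with Benjamini-Hochberg adjustment over 7 pairs. The replicates are 3 animals by their numbers, 1 library each.

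Depth was recovered from short genes, of which 73.1%, 74.0% and 74.3% gave whole fragments within 0.005 at the stated depths. For 14055 of 14071 genes a length up to 20000 bases then gave whole fragments in all rats, and for 0.90% of 1000 genes after random changes. In 49 of the 14071 genes the recovered length was longer than the span of the gene, so it cannot be the true one. The depth and length steps were run on simulated data, with a limit on the error set only for the depth. A recovered length may be a divisor of the true one. Analyses ran in Python 3.11.15 with numpy 2.4.6, pandas 2.3.3 and scipy 1.17.1. Promoter sequences are those of RefSeq for GRCr8.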

Additional observations from a re-analysis of the deposited data

How the results depend on the processing

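Of 156 alternative values for 19 results, 144 were classed as the same. For this, list medians had to keep their sign and lie within 1 SD over rats, and counts to lie within 1.5 times. Pair ratios had only to keep their sign. The mean ratios of the 7 pairs did so under every alternative run. With 0.1 added in place of 1, the mean log2 ratio of Slc25a39 over Slc25a40 went from 3.43 to 3.72, beside an SD of 0.26. The values classed as moved or reversed were list medians and counts of members. At a mean FPKM of 5 or more, 29 members remained, their median deviation was -0.26 in rat 35 and 0.21 in rat 70, 9 were highest in rat 35, and the rat 35 medians of the nucleotide and cofactor group and of the uncoupling-type group were -0.38 and -0.94. Rescaling to a common sum gave -0.012 in rat 19 and 0.20 in rat 70, and doing so without mitochondrial genes -0.18 in rat 35 and 0.21 in rat 70. The cause of these moves was not tested, except that fewer members entered at the higher minimum. Without single rats, the count of members over 2-fold apart ran from 2 (without rat 35) to 13, beside 11.1% and 37.2% of all genes, the family median in rat 19 from -0.047 to 0.071, and the rat 35 median of di- and tricarboxylate carriers from -0.057 to 0.33. Under 3 other scalings, 33 to 36 of 37 members kept the place of rat 35 among the rats, and none went from lowest to highest or back. Under at least 1 of them Slc25a3, Slc25a16 and Slc25a32 became lowest in rat 35, and Slc25a35 came to lie between. Both rescalings to a common sum shifted the median level of all genes, by 0.86 and 1.25 (log2). No paired analysis was possible because there is 1 group. The planned ratio of Slc25a22 over Slc25a18 gave no value, since Slc25a22 was listed at 0, nor did that of Slc25a33 over Slc25a36. Depth limits Slc25a21, Slc25a47 and Slc25a48, where the smallest counts the values allow were 6 fragments or fewer in each rat.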
